A study of Homo sapiens with 4 samples.

Results

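This account describes the matrix metalloproteinases (MMP), the ADAM and ADAMTS proteases, the ADAMTS-like proteins (ADAMTSL) and the tissue inhibitors of metalloproteinases (TIMP) in MDA-MB-231 cells. MDA-MB-231 is an established line from a human breast carcinoma whose cells look mesenchymal. The members were all probes whose gene symbol was MMP, ADAM, ADAMTS, ADAMTSL or TIMP followed by a digit. There were 130 such probes of 47323 on the array, for 77 symbols of 31426, which stand for 76 genes once old symbols are updated. RNA of cells transduced with a short hairpin RNA against TRPM7 (shT7#1, n = 2 arrays) was set against RNA of cells transduced with a scrambled hairpin (shCntrl, n = 2 arrays). Both groups were the same line in the same serum-containing medium, and only 1 TRPM7 hairpin is in these data, so effects of this hairpin and of TRPM7 loss cannot be told apart. TRPM7 encodes a cation channel fused to a kinase, and the series title places it in the upkeep of the mesenchymal state. The labels number the arrays 1 and 2 in each group and do not say whether separate cultures were used. The p-values therefore reflect only how far these arrays differ, which may be technical.

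MMPs, ADAMs and ADAMTS proteases are zinc-dependent enzymes that are made as inactive precursors. MMPs cut collagens and other matrix proteins, ADAMs mostly release the outer parts of membrane proteins, and ADAMTS enzymes cut proteoglycans and procollagens in the matrix. TIMPs bind the active site and block it, while ADAMTS-like proteins resemble ADAMTS enzymes without the protease domain. In breast tumours such proteases are known for their part in invasion and in the release of growth factors.

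The arrays were alike in overall signal, with 19492 to 20261 probes above background per array and median signals of 117.6 to 125.4 units. The deposited tables disagree on which shCntrl array is number 1. Over 21910 symbols with 1 probe, the difference between replicates 1 and 2 correlated between the signal table and the authors' processed values at 0.944 in shT7#1 and at -0.939 in shCntrl. Replicate numbers here are those of the signal table, and group values do not depend on them. The single TRPM7 probe was not above background on any array. Its detection p-values were 0.529 and 0.331 in shT7#1 and 0.275 and 0.443 in shCntrl, so these arrays give no check of the knockdown and the groups rest on the labels. Of the markers of the line, VIM, CD44, AXL and CAV1 were above background on all 4 arrays and ESR1, PGR and CDH1 on none. EPCAM and ERBB3, listed as markers expected to be low, were above background on all 4 arrays. Of markers of other cells, 3 of 8 fibroblast and 1 of 6 endothelial genes were tested and 0 were called.

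Most members could not be measured in these cells. A gene was tested if at least 1 of its probes was above background, with a detection p below 0.05, on at least 2 of the 4 arrays. This left 25 member genes, measured at their brightest passing probe, while 52 symbols were not tested. Of the 52, 41 had no probe above background on any array and 11 had one on a single array. All 4 TIMP and all 5 ADAMTSL genes were tested, against 6 of 24 MMP, 6 of 25 ADAM and 4 of 19 ADAMTS symbols. Over the array, 43% of probes passed, against 33 of the 130 member probes. Absence here means only that the probe signal did not exceed that of negative control beads.

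**Figure D1:**
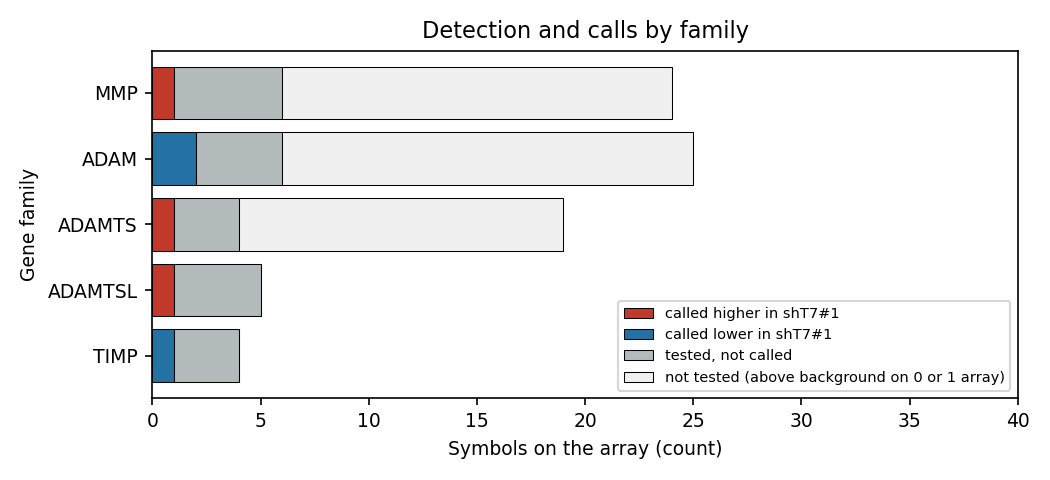
Number of symbols per family (horizontal axis, count), split into those called higher in shT7#1, called lower, tested but not called, and not tested. MMP, ADAM and ADAMTS symbols were mostly not tested, whereas all 4 TIMP and 5 ADAMTSL symbols were.

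Promoter sequences are shown for the called members with the largest rise and the largest fall among those with an entry in the RefSeq promoter table (build GRCh38.p14), which held 18 of the 25 tested members. Each is the 250 bases before the annotated gene start, written 5′ to 3′ along the gene, with every GC box (GGGCGG on either strand) in capitals. The ADAMTSL4 window lies at chr1:150549158-150549407 on the + strand and the TIMP3 window at chr22:32801455-32801704 on the + strand.
ADAMTSL4: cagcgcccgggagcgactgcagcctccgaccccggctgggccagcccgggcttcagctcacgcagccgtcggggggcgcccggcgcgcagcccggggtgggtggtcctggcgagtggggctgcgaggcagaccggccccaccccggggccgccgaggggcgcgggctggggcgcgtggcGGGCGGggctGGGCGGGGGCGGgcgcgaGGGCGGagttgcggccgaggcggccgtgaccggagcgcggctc
TIMP3: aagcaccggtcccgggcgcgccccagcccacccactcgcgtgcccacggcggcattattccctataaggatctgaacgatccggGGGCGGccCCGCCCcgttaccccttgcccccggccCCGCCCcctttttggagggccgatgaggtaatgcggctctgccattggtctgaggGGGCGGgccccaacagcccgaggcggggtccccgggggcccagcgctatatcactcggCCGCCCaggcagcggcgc
The ADAMTSL4 window held 4 GC boxes, between 43 and 71 bases before the start, and the TIMP3 window held 5, between 18 and 166 bases before it. GC made up 83.6% of the ADAMTSL4 window and 72.4% of the TIMP3 window, against a median of 58% over 35116 windows of the same length. A GC box was found in 15 of the 18 tested members with an entry and in 42.6% of all windows. The windows of ADAMTSL1 and ADAMTSL2 lay 567520 and 2540 bases away from the annotated gene start. MMP1, MMP9, ADAM9, ADAMTS1, ADAMTS4, ADAMTS9 and TIMP2 had no entry, so their promoters were not searched. The AP-1 motif TGANTCA, searched on both strands, was found in 0 of the 18 windows and in 6.57% of all windows. The NF-kB consensus was found in 0 of the 18 and in 5.21% of all windows. These are matches of letters in a short window and not binding sites. Of the other called members with an entry, the ADAM8 window held 3 GC boxes and the ADAM19 window 0.

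Expression of 6 member genes differed between the groups: MMP9, ADAMTSL4 and ADAMTS9 rose in shT7#1, and TIMP3, ADAM19 and ADAM8 fell. Thus 3 of 25 tested members were called higher and 3 lower by limma with Benjamini-Hochberg adjustment over all 14731 genes tested. Among all genes tested, 6.48% were called, 2.93% higher and 3.55% lower. Separation of the groups was common by itself: their arrays did not overlap in 55.7% of all genes tested, with 27.5% higher and 28.2% lower in shT7#1. The families as a set were not tested. Members that passed the detection filter only through the group where they were bright had to differ, which touches 6 of the 25. Among the 18 members above background on all 4 arrays, 2 were called higher and 3 lower, against 2.88% and 3.67% of the 12519 genes detected in the same way. Of these 18, the groups did not overlap in 3 members that lay higher and 8 that lay lower in shT7#1, against 28.8% and 29.2% of the 12519 genes. The median log2 difference of the 18 was -0.10, and that of the 12519 genes was 0.001.

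**Figure D2:**
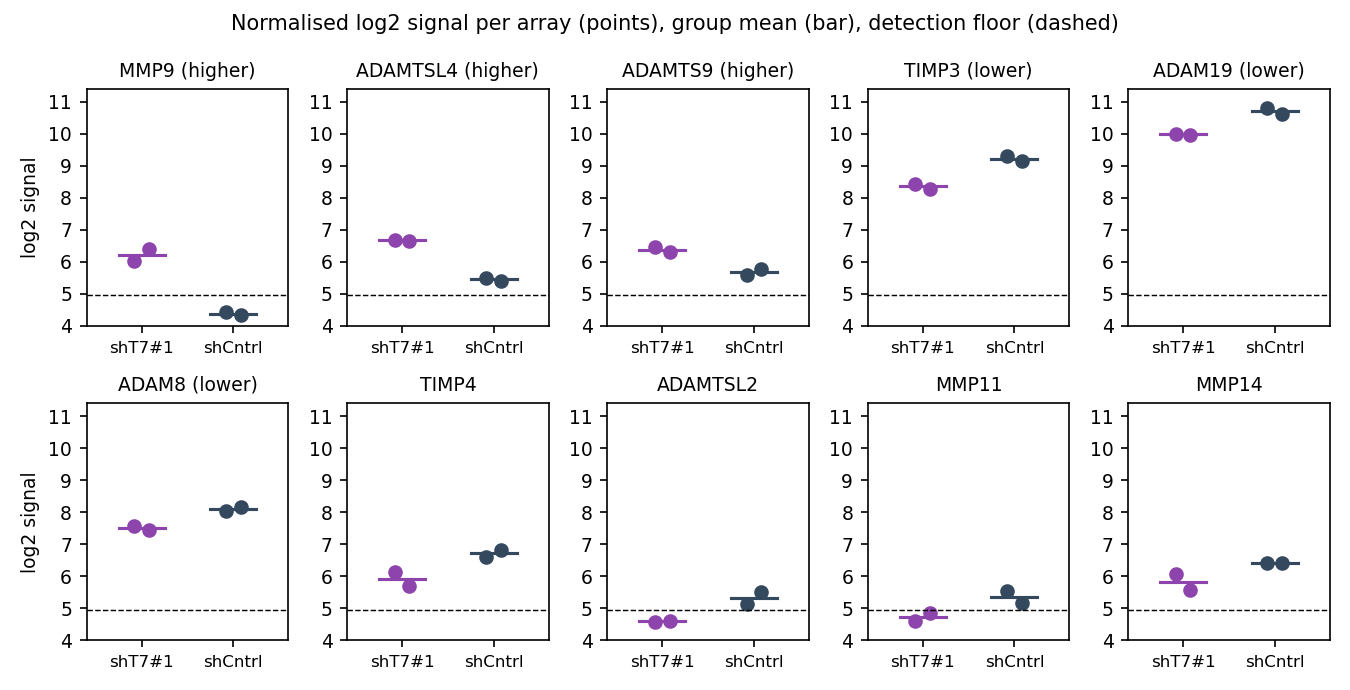
Normalised log2 signal (vertical axis) of the 6 called members and of 4 members not called that differed by at least 0.5 log2 units, with 1 point per array, a bar at the mean of the 2 arrays and a dashed line at the detection floor. The groups do not overlap in any of the 10 panels, and MMP9 in shCntrl and ADAMTSL2 and MMP11 in shT7#1 lie under the floor.

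The gelatinase MMP9 showed the largest difference of the families. MMP9 cuts denatured collagen and basement membrane collagen. Its normalised log2 signal was 6.03 and 6.40 on the shT7#1 arrays, against 4.44 and 4.33 on the shCntrl arrays. Both shT7#1 arrays were above background, with detection p-values of 0.0013 on each, and neither shCntrl array was, with 0.649 and 0.948. By group means and in this processing, MMP9 was therefore at least 2.41-fold higher in shT7#1. This bound takes the detection floor of 4.92 to 4.96 as the shCntrl level and carries no sampling error. The limma adjusted p was 0.00595, for a gene that passed the detection filter through shT7#1 alone. Without a detection filter it was 0.00892. The authors' deposited table lists MMP9 at 14.67-fold. MMP9 is also a gene of macrophages and granulocytes. Of 8 leukocyte markers, CD14, CD68 and CSF1R were above background on all 4 arrays, LYZ on 1, and PTPRC, CD163, ITGAM and CD3E on none. CD14 and CD68 differed by 0.10 and -0.17 log2 units and were not called, while CSF1R was lower in shT7#1, at -1.52 ± 0.14 log2 units (SE). Summed over the 8 markers, the log2 signal was 47.3 and 47.7 in shT7#1, against 48.9 and 48.8 in shCntrl. Without CSF1R the sum of the other 7 was 41.2 and 41.9 in shT7#1, against 41.5 and 41.2 in shCntrl. The part of leukocyte RNA in the MMP9 signal was not tested.

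The other gelatinase, MMP2, had no probe above background on any array. The same held for the stromelysins MMP3 and MMP10, the collagenases MMP8 and MMP13 and the matrilysins MMP7 and MMP26. Of the 10 MMP symbols on chromosome 11, where many MMP genes lie side by side, MMP1 alone was tested. MMP1, the interstitial collagenase, had log2 signals of 7.17 and 6.92 in shT7#1, against 7.10 and 7.04 in shCntrl. The groups overlapped, and the difference of -0.02 log2 units had a 95% interval of -0.36 to 0.31. A change beyond 0.36 log2 units in either direction thus lies outside the interval for this probe.

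At their brightest passing probes, the remaining tested MMPs lay lower in shT7#1 without passing the test. MMP14 is a membrane-type MMP that activates the precursor of MMP2. It had log2 signals of 6.06 and 5.57 in shT7#1, against 6.40 and 6.40 in shCntrl, a difference of -0.58 ± 0.18 log2 units (SE, limma adjusted p = 0.120). The shT7#1 arrays were farther apart from each other than the shCntrl arrays. MMP11, stromelysin 3, had 4.61 and 4.83 in shT7#1, against 5.54 and 5.16 in shCntrl, with an adjusted p of 0.0902 by limma. It was above background on both shCntrl arrays and on neither shT7#1 array. By group means this bounds the difference at 1.31-fold or more, without sampling error. MMP24 and MMP23B had the same detection pattern, with bounds by group means of 1.23-fold and 1.25-fold and limma adjusted p-values of 0.318 and 0.209. Their fitted intervals, -0.88 to 0.134 log2 units for MMP24 and -0.678 to 0.014 for MMP23B, reached into a rise. These bounds therefore set no smallest fall for either gene. In shT7#1 their detection p-values lay close to the threshold of 0.05. They were 0.0584 and 0.0714 for MMP24 and 0.0532 on each array for MMP23B. The other MMP23B probe did not pass the filter and lay 0.34 log2 units higher in shT7#1. That probe was above background on 1 shT7#1 array and 0 shCntrl arrays. MMP24 is another membrane-type enzyme. MMP15 and MMP16, also membrane-type, were above background on a single array each, and MMP17 and MMP25 on none.

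Of the ADAMs, ADAM19 and ADAM8 fell, and the other 4 tested were not called. All 6 tested ADAMs belong to the 12 with a catalytic zinc site, and none of the 13 other ADAM symbols, several of them pseudogenes, was tested. ADAM19, a membrane protease also called meltrin beta, had log2 signals of 10.00 and 9.96 in shT7#1, against 10.82 and 10.61 in shCntrl. ADAM19 thus fell 1.67-fold, or -0.74 ± 0.13 log2 units (SE, limma adjusted p = 0.0343). A fit to the authors' processed log2 values gave -0.20 for ADAM19, with a limma adjusted p of 0.536, and the authors' deposited table lists it at 0.87-fold with mean log2 values of 2.32 in shT7#1 and 2.52 in shCntrl. On these arrays ADAM19 has 3 probes, of which 1 was above background.

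ADAM8, a protease of leukocytes and of some tumours, had log2 signals of 7.57 and 7.43 in shT7#1, against 8.05 and 8.17 in shCntrl. The shT7#1 arrays both lay below the shCntrl arrays. The change of -0.61 ± 0.12 log2 units (SE, limma adjusted p = 0.0496) was at the edge of the threshold. The call was lost on the authors' processed values (adjusted p = 0.108), without a detection filter (0.0691) and with each probe tested by itself (0.0564). The authors' deposited table lists ADAM8 at 0.63-fold.

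ADAM10 and ADAM17 are the main sheddases of Notch receptors, growth factor precursors and cytokines. ADAM10 had log2 signals of 8.94 and 8.82 in shT7#1, against 8.86 and 9.13 in shCntrl, and the groups overlapped. Its difference of -0.12 had a 95% interval of -0.47 to 0.23. ADAM17 had 8.06 and 7.99 in shT7#1, against 7.87 and 7.67 in shCntrl, a difference of 0.25 with an interval of -0.07 to 0.57 and a limma adjusted p of 0.285. The groups did not overlap, and the other passing probe of ADAM17 lay 0.40 log2 units higher in shT7#1. ADAM9, which also sheds membrane proteins, differed by -0.30 with an interval of -0.61 to 0.01, and its groups did not overlap either. ADAM15 differed by 0.09 at its brightest probe, while its 3 other passing probes lay at 0.13, -0.23 and -0.30, so the probes of ADAM15 gave no common direction.

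**Figure D3:**
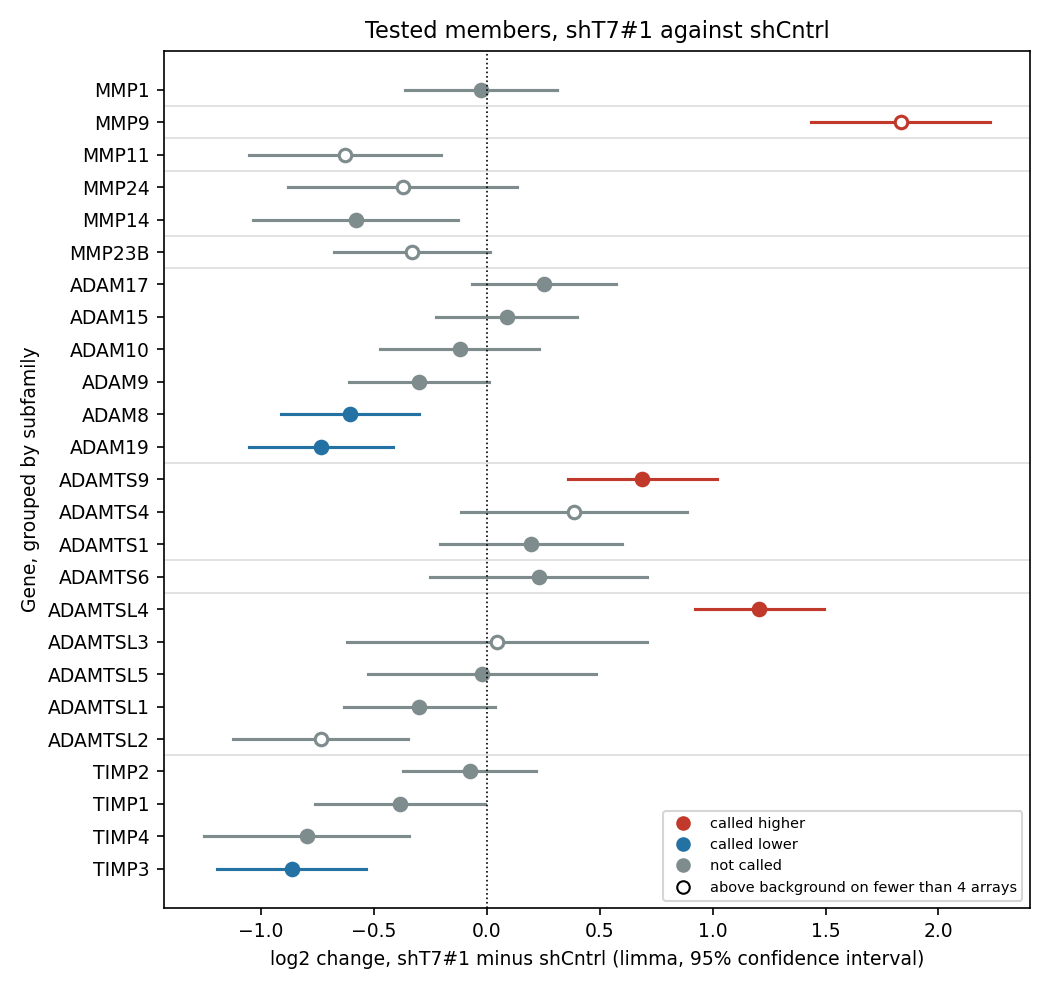
Log2 change of shT7#1 over shCntrl (horizontal axis) with its 95% confidence interval for the 25 tested members, grouped by subfamily; open points mark genes above background on fewer than 4 arrays. MMP9 lies farthest to the right at a fitted 1.83, which is no exact change since shCntrl was below background, followed by ADAMTSL4 at 1.21, and all 4 TIMPs lie left of 0.

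ADAMTS9 rose, and the other tested ADAMTS genes were not called. ADAMTS9 cuts the proteoglycans versican and aggrecan. It had log2 signals of 6.46 and 6.31 in shT7#1, against 5.60 and 5.79 in shCntrl. The arrays of the groups did not overlap, and the gene rose by 0.69 ± 0.13 log2 units (SE, limma adjusted p = 0.0442). The call was lost on the authors' processed values (log2 change 1.00, adjusted p = 0.0931) and without a detection filter (0.0620). Among the proteoglycanases, ADAMTS4 lay above background on both shT7#1 arrays and neither shCntrl array. By group means its bound was 1.10-fold higher, with a limma adjusted p of 0.296. The fitted interval of ADAMTS4, -0.113 to 0.885 log2 units, reached into a fall, so this bound sets no smallest rise. ADAMTS1 differed by 0.20, with an interval of -0.21 to 0.60. ADAMTS6 differed by 0.23, with an interval of -0.25 to 0.71, and its shT7#1 arrays, at 6.41 and 6.94, lay on both sides of the shCntrl arrays. The procollagen processing enzymes ADAMTS2 and ADAMTS14 had no probe above background on any array, and ADAMTS3 had one on a single array.

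ADAMTSL4, a protein of fibrillin microfibrils known for its role in holding the lens, showed the clearest rise among members measured on all 4 arrays. Its log2 signal was 6.68 and 6.66 in shT7#1, against 5.51 and 5.41 in shCntrl. ADAMTSL4 rose 2.31-fold, or 1.21 ± 0.12 log2 units (SE, limma adjusted p = 0.00771). Its other passing probe had 6.14 and 5.58 in shT7#1, against 5.03 and 4.63 in shCntrl, a difference of 1.02 in the same direction. On the authors' processed values the change was 1.46, with an adjusted p of 0.0838. In its promoter, printed above, the 4 GC boxes lie within 71 bases of the start.

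The other ADAMTS-like genes were not called. ADAMTSL2, which also binds microfibrils, had 4.56 and 4.61 in shT7#1, against 5.14 and 5.51 in shCntrl, and was above background in shCntrl only. By group means the bound was 1.28-fold lower or more in shT7#1, without sampling error, with a limma adjusted p of 0.0537. ADAMTSL1 differed by -0.30 at its brightest probe and by 0.09 at its other passing probe. ADAMTSL5 differed by -0.02, with an interval of -0.53 to 0.48, and ADAMTSL3, above background on 1 array of each group, by 0.05.

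Of the inhibitors, TIMP3 fell. TIMP3 stays bound to the matrix and is known to inhibit ADAM17 and ADAMTS enzymes as well as MMPs. Its log2 signal was 8.44 and 8.27 in shT7#1, against 9.30 and 9.14 in shCntrl, so that every shT7#1 array lay below every shCntrl array. TIMP3 was 1.82-fold lower, a change of -0.86 ± 0.13 log2 units (SE, limma adjusted p = 0.0255). The authors' deposited table lists TIMP3 at 0.53-fold, and a limma test on the authors' processed values gave an adjusted p of 0.0825. Its promoter, also printed above, holds 5 GC boxes.

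TIMP4 had log2 signals of 6.13 and 5.70 in shT7#1, against 6.59 and 6.83 in shCntrl. The difference of -0.80 ± 0.18 (SE) was close in size to that of TIMP3 and missed the threshold, with a limma adjusted p of 0.0636. It passed under 5 of 14 alternative settings, among them eBayes with a trend (adjusted p = 0.0151). TIMP1, a secreted inhibitor of most MMPs, had 13.39 and 13.19 in shT7#1, against 13.54 and 13.82 in shCntrl. Its difference was -0.38, with an interval of -0.76 to -0.01 and a limma adjusted p of 0.185, and it passed without background correction (adjusted p = 0.0289) and with a trend (0.0157). TIMP2, which inhibits MMPs and also helps MMP14 to activate MMP2, differed by -0.08 at its brightest probe, with an interval of -0.37 to 0.22. Its other passing probe lay 0.24 higher in shT7#1.

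With 2 arrays per group the calls were sensitive to single arrays. A fit without 1 array leaves a group of 1, whose spread is assumed to be that of the other group. Of all genes, only 0.468% to 0.584% were then called higher and 0.258% to 0.360% lower. MMP9 kept the call, with limma adjusted p-values of 0.0336 to 0.0476, but its shCntrl level is only a bound. The other 5 called members lost the call whichever array was left out, while their log2 changes stayed between 1.16 and 1.25 for ADAMTSL4, 0.59 and 0.79 for ADAMTS9, -0.95 and -0.78 for TIMP3, -0.84 and -0.63 for ADAM19, and -0.67 and -0.54 for ADAM8. For ADAMTSL4 the adjusted p then lay between 0.0528 (without shCntrl replicate 1) and 0.0708 (without shT7#1 replicate 1). For TIMP3 it lay between 0.0854 (without shCntrl replicate 2) and 0.127 (without shCntrl replicate 1). ADAM19 ranged from 0.0898 to 0.148, ADAMTS9 from 0.108 to 0.189 and ADAM8 from 0.147 to 0.175.

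**Figure D4:**
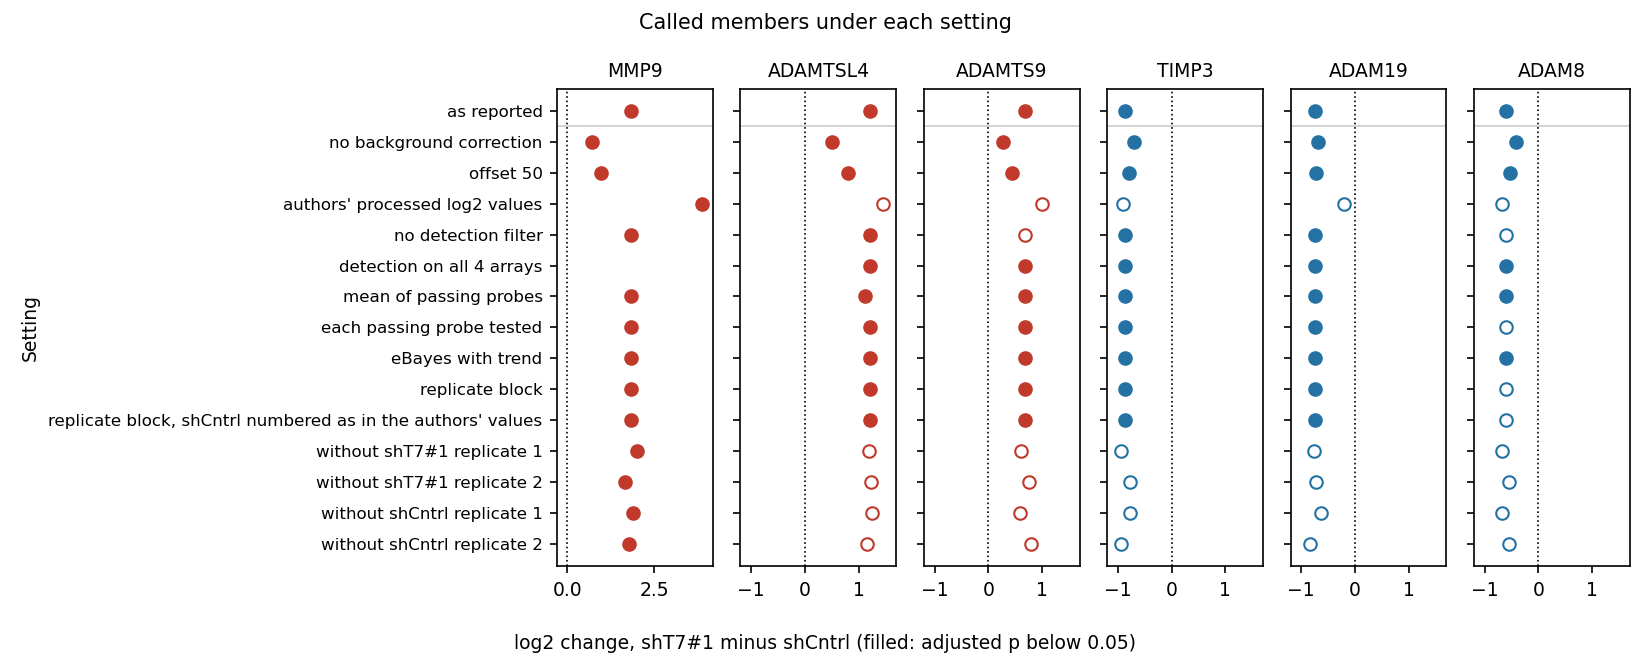
Log2 change of shT7#1 over shCntrl (horizontal axis) of the 6 called members under each setting (rows), filled where the limma adjusted p was below 0.05. No change crosses 0 in any of the 6 panels, and the points without 1 array are filled for MMP9 only; MMP9 has no value where detection on all 4 arrays was required.

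Genes around the proteases were read from lists of activators, inhibitors, substrates and regulators, in the same fit over all genes tested, of which 2.93% were called higher and 3.55% lower. Of 20 tested genes of precursor activation and membrane partners, 1 rose, 1 fell and 18 were not called. TSPAN5 and TSPAN33 are tetraspanins that accompany ADAM10 to the cell surface. TSPAN5 fell, with log2 signals of 8.75 and 8.97 in shT7#1, against 10.05 and 9.91 in shCntrl, and a log2 change of -1.12 ± 0.14 (SE, limma adjusted p = 0.0138). TSPAN33 rose by 0.89, with a limma adjusted p of 0.0352. FURIN, which activates precursors of membrane-type MMPs and ADAMs, and RHBDF1 and RHBDF2, which carry ADAM17 to the surface, lay at 0.02, 0.00 and 0.09 log2 units and were not called.

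Of 8 tested inhibitors outside the TIMP family, 1 rose, 1 fell and 6 were not called. TFPI2, a serine protease inhibitor of the matrix, rose by 0.96 ± 0.11 log2 units (SE, limma adjusted p = 0.0129). CST3, which encodes the cysteine protease inhibitor cystatin C, changed by -0.78 (limma adjusted p = 0.0297). RECK, a membrane-anchored inhibitor of MMPs, lay at 0.20 and was not called. In these lists of activators and inhibitors, 0 genes stayed called in either direction whichever array was left out.

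Among membrane proteins known to be shed by ADAM10 or ADAM17, 6 of 26 tested rose, 1 fell and 19 were not called, with a median log2 change of -0.10. SDC4, a syndecan, rose by 2.27 ± 0.13 log2 units (SE), with 10.56 and 10.52 in shT7#1 against 8.38 and 8.15 in shCntrl. The cytokine TNF, not above background in shCntrl, was at least 5.52-fold higher in shT7#1. ICAM1, a leukocyte adhesion molecule, had a fitted change of 2.89, with a single shCntrl array above background. The TNF receptor TNFRSF1B rose by 1.38, the chemokine CX3CL1 by 1.21 and the growth factor HBEGF by 1.06 log2 units. SDC1, another syndecan, changed by -0.68. With the mean of its passing probes the change was -0.36, with a limma adjusted p of 0.313. The SDC1 call was also lost on the authors' processed values (0.373), without a detection filter (0.0710) and with each probe tested by itself (0.0539). It was kept with detection required on all 4 arrays (0.0239) and with a trend (0.00111). By limma, adjusted p-values in this list of calls ran from 0.00183 for TNF to 0.0490 for SDC1. TNF passed the detection filter through shT7#1 alone and so had to differ. Without a detection filter its limma adjusted p was 0.00265. Without any single array, 3 to 4 of the list stayed called higher and 0 lower. Transcript levels do not measure shedding.

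Of 18 tested matrix substrates, 3 rose, 1 fell and 14 were not called, with a median of -0.001. COL4A1, a basement membrane collagen, rose by 0.80 ± 0.13 log2 units (SE, limma adjusted p = 0.0297). COL6A2 rose by 0.82, while COL6A3 changed by -1.39. COL5A2, above background on neither shCntrl array, was at least 1.38-fold higher in shT7#1. It passed the detection filter through shT7#1 alone and so had to differ. Leaving out any single array left 0 matrix genes called higher, and 1 called lower except without shT7#1 replicate 2, where there were 0.

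Of 25 tested transcription factors known to act on MMP promoters, 3 rose, 4 fell and 18 were not called. The NF-kB subunits RELB and NFKB2 rose by 1.62 and 1.63 log2 units, each with a limma adjusted p of 0.00393, and ETS1 rose by 0.95. FOS, a subunit of AP-1 that was not above background in shT7#1, was at least 1.36-fold lower there. It passed the detection filter through shCntrl alone and so had to differ. RUNX1, RUNX2 and SNAI2 changed by -0.74, -0.76 and -0.64. The AP-1 subunits JUN and FOSL1 lay at -0.15 and -0.02 and were not called. Leaving out any single array left 2 of these factors called higher and 0 lower.

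**Figure D5:**
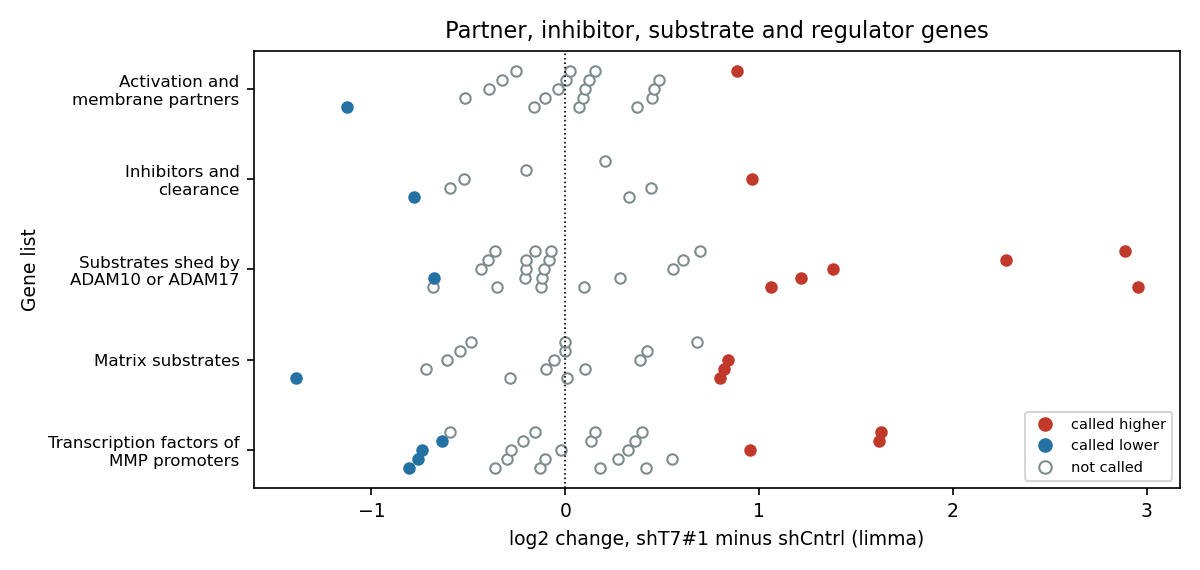
Log2 change of shT7#1 over shCntrl (horizontal axis) for each tested gene of 5 lists (rows), filled where called at a limma adjusted p below 0.05. The points farthest to the right belong to substrates shed by ADAM10 or ADAM17, with SDC4 at 2.27 and ICAM1 and TNF beyond it at fitted values that are no exact changes, and the point farthest to the left is COL6A3 at -1.39.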

How the data were processed

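Illumina HumanHT-12 v4 arrays of 4 samples were used. The deposited table gave linear signal intensities for each probe on each array, and a detection p-value against negative control beads, made with GenomeStudio 2011.1 per the submitters' processing notes. The authors' processed log2 values, 1 per symbol, and their table of group means and a linear fold ratio were RMA-normalised in ArrayStar, per the file headers. These served as an alternative and for side-by-side values. How probes were joined is not given in the sources used here.

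Here, limma 3.58.1 in R 4.3.3 corrected background by normexp from the detection p-values (offset 16), followed by quantile normalisation and log2. Of 47323 probes, 20366 passed detection p below 0.05 on at least 2 arrays. They gave 14731 genes at their brightest probe, with symbols updated through RefSeq names (GRCh38.p14). The group was the only term of the fit (lmFit, eBayes), two-sided, with 2 residual and 3.65 prior degrees of freedom. A group below background on both arrays gives only a bound, "at least N-fold", against the detection floor (4.92 to 4.98 log2 units). The bound compares the mean of the other group with that floor and carries no sampling error. Errors are SE of the fit. Only 4 arrays limit precision.

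Members and lists were chosen with earlier results of these data known. Named were called members, members differing by at least 0.5 log2 units, all tested MMPs and TIMPs, the 5 brightest ADAM and ADAMTS or ADAMTSL genes, and called list genes, at most 6 a list (SDC1 and SNAI2 go past this and were named to complete their counts). Other members were named to account for the families, and list genes that were not called were chosen after their values were seen. Alternatives covered background, normalisation, filter, probe choice, variance trend, replicate block and each array left out. A gene of the substrate lists, left out of their counts, is not reported here.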

Additional observations from a re-analysis of the deposited data

How the results depend on the processing

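The sign of each of the 6 called members was kept under all alternatives that gave a value (13 for MMP9, 14 for the others). The fitted log2 change of MMP9 ranged from 0.70 without background correction to 3.87 on the authors' processed values, and that of ADAMTSL4 from 0.50 to 1.46. The count of 3 members called higher fell to 1 on the authors' processed values and was 1 without any single array. The count of 3 called lower was 0 on the authors' processed values, 5 without background correction and 5 with a variance trend, and 0 without any single array. Of all genes, 0.788% were called higher and 0.689% lower on the authors' values, against 7.89% and 8.57% without background correction, 7.70% and 8.51% with a trend, and 0.468% to 0.584% and 0.258% to 0.360% without 1 array. The cause of these shifts was not tested. Some members that were not called changed sign under some settings, among them ADAMTSL1 and MMP23B, which lay at -0.30 and -0.33 in the main fit. On the authors' processed values these were ADAM15 (-0.15), ADAMTSL1 (0.17), MMP23B (0.02) and TIMP2 (0.15), and with the mean of passing probes ADAM15 (-0.08) and TIMP2 (0.08). Leaving out 1 array at a time, values ran from -0.26 to 0.01 for ADAM10, -0.04 to 0.49 for ADAMTS6, -0.24 to 0.34 for ADAMTSL3, -0.31 to 0.26 for ADAMTSL5 and -0.15 to 0.10 for MMP1. With the replicate number as a block, numbered as in the signal table, the counts stayed at 3 higher and 3 lower, with ADAM8 lost (adjusted p = 0.0527) and ADAMTSL2 gained (0.0402); deviations of same-numbered arrays correlated at 0.125, which does not establish pairs with 2 arrays per group. The deposited tables number the shCntrl arrays in opposite order, and a block with those numbers exchanged, added after seeing the data, also gave 3 and 3, with ADAM8 lost (0.0690) and TIMP4 gained (0.0338). Alternatives for the other lists were added after seeing the data: without any single array, 3 to 4 shed substrates stayed called higher, and with all 4 arrays 4 to 8.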

Other observations

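The authors' deposited table lists 49 member symbols, 25 tested here and 24 not. It gives 5 of them at 2-fold or more. These are MMP9, ADAMTSL4 and ADAMTS9, ADAMTS4 at 2.02-fold, which was not called here, and ADAMTS3 at 2.02-fold, which was above background on a single array. It gives 4 at 0.5-fold or less, of which ADAMTSL2 (0.30), MMP11 (0.38) and TIMP4 (0.47) were tested and not called here, and ADAM29 (0.47) was above background on a single array.

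For genes with several probes the authors' values can differ from the brightest probe. TIMP2 is listed by the authors' deposited table at mean log2 values of 8.16 in shT7#1 and 8.02 in shCntrl, and ADAM15 at 7.59 and 7.74. At their brightest probes the mean log2 signals computed here were 12.11 and 12.18 for TIMP2 and 11.67 and 11.59 for ADAM15, in the same order of groups. The 2 scales were normalised separately, so only the differences within a scale compare: 1.11-fold for TIMP2 and 0.90-fold for ADAM15 in the authors' table, against 0.95-fold and 1.06-fold here.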
